A study of Mus musculus with 10 samples.

Results

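Gene deserts are long stretches of a genome without protein-coding genes. Here they were taken as the autosomal cytosine positions lying over 100000 bp from every protein-coding gene of the RefSeq gene table for GRCm38, the assembly that mm10 corresponds to. The rule used no methylation value. It kept 197114 of the 2101419 autosomal positions measured, or 9.38%. They were set beside 622082 other intergenic positions, which lie outside protein-coding genes but within 100000 bp of one, and 1282223 positions inside protein-coding genes.

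DNA methylation was measured by reduced representation bisulfite sequencing (RRBS) in 10 samples of mouse embryos at embryonic day 7.5, 5 labelled control and 5 labelled arsenic. RRBS sequences fragments cut at CpG-containing sites, so it reads CpG-rich parts of the genome more densely than the rest. Per the labels, embryo DNA was purified with phenol and chloroform and made into NEBNext Ultra II libraries. The labels used here give no dose, route or timing of arsenic, no strain or sex, and do not say whether a sample was a single embryo or a pool or whether extraembryonic tissue was included. With DNA alone, the tissue could not be checked against expressed markers.

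The table has 10 sets of read counts numbered 1 to 10, and none of these numbers could be tied to a sample title. Arsenic and control embryos were therefore not compared, no test was made between columns, and values are given as the median and range over the 10 columns. The total coverage of a column was 73509873 to 127743904 reads summed over positions, and the median coverage of a desert position was 26 to 46 reads. The methylation level of a position is its methylated reads divided by its coverage.

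In mammals, methyl groups are placed mainly on cytosines of CpG dinucleotides. The embryo loses most of this mark before implantation, and the de novo enzymes Dnmt3a and Dnmt3b restore it around and after implantation. CpG islands, the CpG-dense stretches at many gene starts, generally stay free of it. Gene deserts hold few such starts, although many carry non-coding RNA genes and distant enhancers of developmental regulators.

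The contrast within deserts can be seen in the promoter windows of long non-coding RNA (lncRNA) genes, taken from 250 bases before to 50 bases after the start. Of the windows with at least 10 measured positions, 4 are shown, chosen after their levels were seen: the 2 with the lowest level, the highest, and a high one with nearly as many CpGs as the second lowest. The sequences are those of RefSeq on GRCm38.p6, read 5′ to 3′ on the strand of the gene, and capitals mark CpGs with a measured position.
2410018L13Rik: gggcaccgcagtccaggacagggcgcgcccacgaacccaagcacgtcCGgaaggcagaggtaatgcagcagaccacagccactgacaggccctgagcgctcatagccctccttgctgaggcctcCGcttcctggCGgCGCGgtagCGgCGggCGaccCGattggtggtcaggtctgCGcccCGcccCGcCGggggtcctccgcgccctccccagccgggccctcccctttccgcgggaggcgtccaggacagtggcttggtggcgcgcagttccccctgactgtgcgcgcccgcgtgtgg
Gm29998: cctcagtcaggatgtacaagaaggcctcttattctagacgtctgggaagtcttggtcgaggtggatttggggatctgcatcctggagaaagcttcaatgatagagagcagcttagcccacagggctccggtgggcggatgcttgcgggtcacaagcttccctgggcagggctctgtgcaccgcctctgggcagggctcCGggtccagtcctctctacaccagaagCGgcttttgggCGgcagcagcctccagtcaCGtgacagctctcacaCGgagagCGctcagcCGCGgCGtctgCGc
Gm34061: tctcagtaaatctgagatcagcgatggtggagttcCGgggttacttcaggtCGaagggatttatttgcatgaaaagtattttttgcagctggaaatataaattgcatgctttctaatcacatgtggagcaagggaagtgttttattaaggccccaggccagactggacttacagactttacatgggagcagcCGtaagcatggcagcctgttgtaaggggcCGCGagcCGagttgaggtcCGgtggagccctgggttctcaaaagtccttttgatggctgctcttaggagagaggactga
Gm35407: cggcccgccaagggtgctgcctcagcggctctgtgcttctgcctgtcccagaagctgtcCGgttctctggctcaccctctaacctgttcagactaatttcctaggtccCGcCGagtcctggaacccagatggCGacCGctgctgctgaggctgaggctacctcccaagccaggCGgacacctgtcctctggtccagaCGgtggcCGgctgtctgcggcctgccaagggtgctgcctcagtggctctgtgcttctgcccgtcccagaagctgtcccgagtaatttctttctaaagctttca
The window of 2410018L13Rik (chr12:23010194-23010493, minus strand) holds 31 CpGs, and its 23 measured positions had a level of 1.32% (0.217% to 2.99% over the columns). The window of Gm29998 (chr19:33391551-33391850, plus strand) holds 16 CpGs and had a level of 1.41% (0% to 4.26%). In contrast, Gm34061 (chr14:99578216-99578515, plus strand) holds 8 CpGs and was at 86.9% (78.1% to 92.3%). Gm35407 (chr3:67753350-67753649, plus strand) holds 14 CpGs, close to the 16 of Gm29998, and was at 68.8% (62.2% to 75.4%). The column ranges of the low and the high windows do not overlap, which follows from how they were chosen.

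Desert positions had a mean level of 56.9% (median of the columns, range 55.2% to 59.7%). The corresponding level was 43.0% (41.8% to 45.01%) at other intergenic positions and 37.7% (36.9% to 39.0%) inside protein-coding genes. The difference, desert minus other intergenic, was 13.99 percentage points (13.2 to 14.7) and lay above 0 in 10 of 10 columns. Weighted by coverage it was 4.59 points, and 10.1 points with the same weights but without a ribosomal RNA region of chromosome 17 that held 11.9% of desert reads. It was also smaller against intergenic positions farther from genes: compared with those 10 to 100 kb from a gene alone, deserts were higher by 3.61 points (3.18 to 3.82), again in 10 of 10 columns. At the distance limit itself, positions 100 to 110 kb from a gene stood at 53.2% and those 90 to 100 kb away at 56.1%. The first of these bands contains the ribosomal RNA region, which lies around the pseudogene Rn18s-rs5. That region gives 994 of the band's 13552 positions and stood at 10.1%. The level of the band without it was not computed, so the step at the limit cannot be read as a change in level there.

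**Figure D1:**
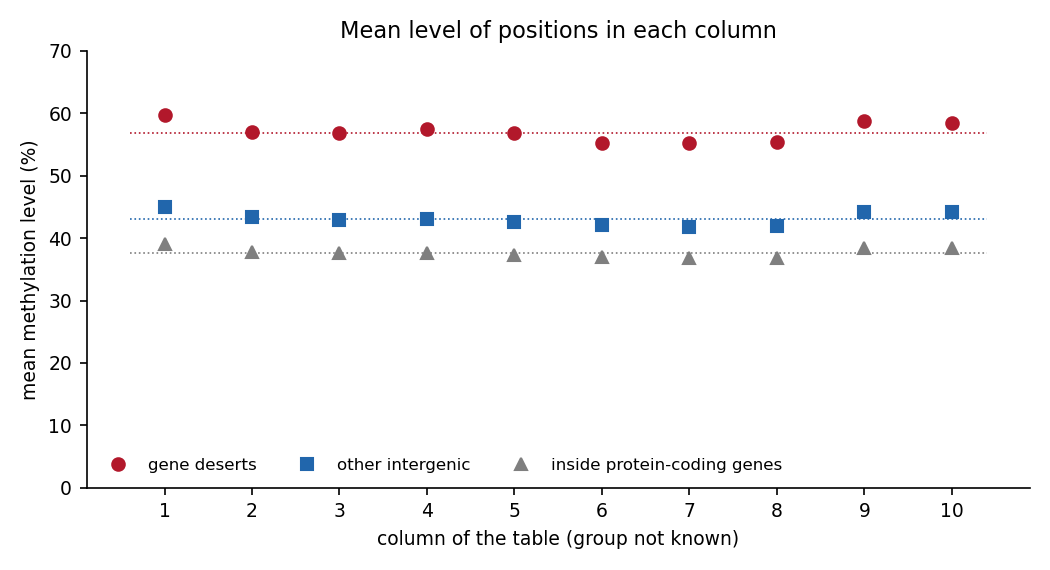
Mean methylation level (y axis, percent) in each of the 10 columns of the table (x axis), for desert, other intergenic and genic positions; dotted lines are the medians over the columns. Desert values lie between 55.2% and 59.7%, above all other intergenic values, and columns 1, 9 and 10 are the highest in each kind of position.

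The columns differed in the same way in deserts as elsewhere. Columns 1, 9 and 10 were the highest (59.7%, 58.7% and 58.5%) and columns 6, 7 and 8 the lowest (55.2%, 55.2% and 55.4%). The same 3 columns were highest and the same 3 lowest at other intergenic positions. In points, the span between columns was wider in deserts, 4.46 against 3.17. Divided by the median column, the values ran from 0.970 to 1.05 in deserts and from 0.972 to 1.05 at other intergenic positions. Column 1 also had the deepest coverage of desert positions, a median of 46 reads, but columns 9 and 10 had 30 and 34. The part of coverage in these differences was not tested.

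Few desert positions were unmethylated, and most were at an intermediate level. With the reads of the 10 columns summed, 5.84% of desert positions lay under 20%, against 27.9% of other intergenic positions and 42.5% of positions inside genes. A low share was not particular to deserts. It was 10.5% at intergenic positions 10 to 100 kb from a gene, and 4.88% at those 90 to 100 kb away. Levels of 40% to 80% held 76.0% of desert positions, 53.6% of other intergenic positions and 38.4% of those inside genes. At the high end the parts were closer, with 9.34%, 7.27% and 11.98% of positions over 80%. The quartiles of desert positions were 47.5% and 70.1%. A single summed level cannot tell cells or alleles that are fully methylated in part from partial methylation in every cell.

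**Figure D2:**
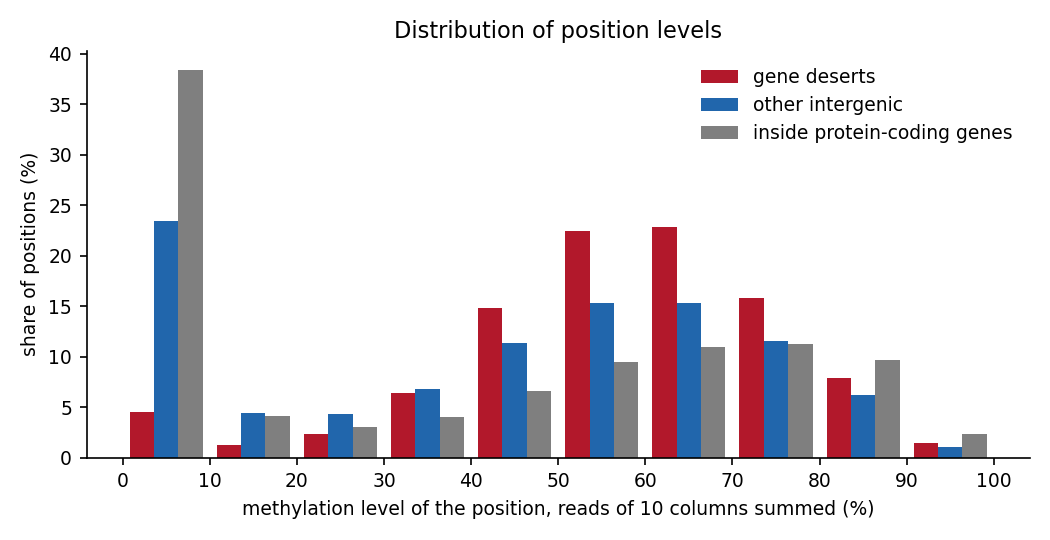
Share of positions (y axis, percent) in each interval of 10 points of methylation level (x axis, reads of the 10 columns summed), for desert, other intergenic and genic positions. The peak below 10%, which holds 38.4% of positions inside genes and 23.5% of other intergenic positions, holds 4.53% of desert positions.

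Both strands of a CpG gave similar values in deserts. Among 53648 CpGs measured on both strands, the mean was 54.9% on the plus strand and 55.0% on the minus strand, and the median absolute difference between strands was 4.32 points.

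In deserts, with positions weighted equally, the level was not lower where positions were moderately dense, unlike inside genes and at other intergenic positions as a whole. Positions were classed by how many measured positions, themselves included, lay within 100 bp. Desert positions with at most 5 stood at 54.9% (52.7% to 57.8%), those with 6 to 15 at 60.1% (58.2% to 62.8%) and those with over 15 at 52.9% (51.3% to 54.5%). The middle class exceeded the sparse class in 10 of 10 columns, by 5.23 points (4.84 to 5.97). With positions weighted by coverage this order turned: the middle class was at 53.6% and the sparse class at 55.7%, and the middle class was at 53.8% without the ribosomal RNA region. At other intergenic positions the 3 classes were at 53.5%, 45.1% and 14.6%, and inside genes at 58.4%, 45.2% and 10.8%. At intergenic positions 10 to 100 kb from a gene alone, the sparse and middle classes were close, at 55.5% and 54.3%. The dense class there was at 37.9%. The sparse and middle classes hold 51.3% and 41.9% of desert positions, and the dense class 6.78%.

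In finer classes, the desert level went from 55.2% at positions with no neighbour to 63.1% at those with 13 to 15, and was still 61.4% with 16 to 20. It was 47.7% with 21 to 30 and 9.65% with 31 or more. Of the 1331 desert positions in this last class, 757 belong to the ribosomal RNA region, and the level without that region was 9.16%. The value of the dense class depends on the window used to count neighbours: it was 34.9% with over 15 positions within 50 bp and 58.7% with over 15 within 200 bp. Weighted by coverage, which gives most weight to the ribosomal RNA region, it was 18.7%, and 47.1% with the same weights but without that region.

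**Figure D3:**
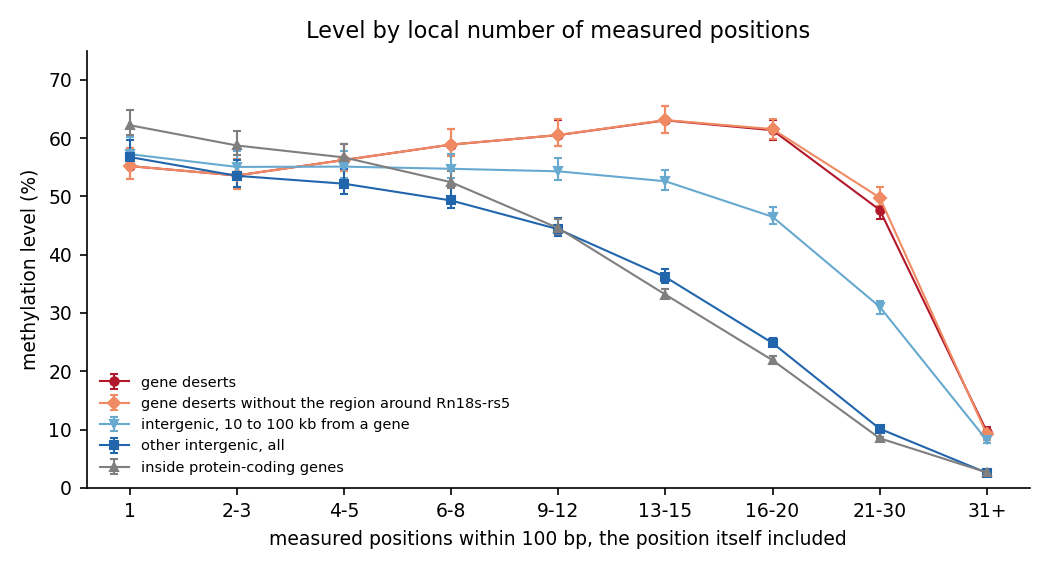
Methylation level (y axis, percent) by the number of measured positions within 100 bp (x axis); points are medians of the 10 columns and bars their range. Desert levels go up to 63.1% at 13 to 15 positions, where other intergenic and genic levels go down, and all parts are under 10% at 31 or more.

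With positions weighted equally, deserts and the rest of the genome differed most in the dense class of local number. Local numbers within this class can still differ. At 31 or more positions, deserts were at 9.65% and other intergenic positions at 2.57%. Desert minus other intergenic was 1.39 points (0.983 to 1.67) in the sparse class. It was 15.2 (14.2 to 15.8) in the middle class and 38.3 (37.1 to 39.4) in the dense class. Each lay above 0 in 10 of 10 columns. Against intergenic positions 10 to 100 kb from a gene alone, the middle and dense differences were smaller. They were 5.98 points (5.45 to 6.29) and 15.04 (14.4 to 15.6), also above 0 in 10 of 10 columns. The small difference of the sparse class turned to -0.811 points when deserts were defined by distance from any gene, and against intergenic positions 10 to 100 kb from a gene it was -0.586 points, below 0 in 10 of 10 columns. That of the dense class was 2.22 points when positions were weighted by coverage, and 31.1 with the same weights but without the ribosomal RNA region. With the other intergenic positions weighted to the local numbers of deserts, which are finer than the 3 classes, the difference over all positions was 9.16 points (8.43 to 9.50). Against positions inside genes the sparse class of deserts was lower, by -3.37 points in the median column and in 10 of 10 columns, and the dense class higher by 42.1.

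The difference between dense and sparse positions changed sign with distance from protein-coding genes. The level of the dense class minus that of the sparse class was -47.5 points inside genes, -43.5 within 10 kb of one and -17.6 at 10 to 100 kb. Inside deserts it was -12.8 points at 100 to 200 kb, 4.47 at 200 to 400 kb, 12.9 at 400 to 800 kb and 13.5 over 800 kb from a gene. In each of these bands the sign was the same in all 10 columns. Dense positions stood at 43.1% at 100 to 200 kb (48.6% without the ribosomal RNA region), 59.7% and 66.0% in the next bands and 67.02% (64.7% to 68.4%) over 800 kb. Sparse positions went slightly the other way, from 55.7% at 100 to 200 kb to 53.0% (50.5% to 55.7%) over 800 kb. In this last band 9.66% of sparse positions lay under 20%, against 1.07% of positions in the middle class. The dense class over 800 kb holds 1114 positions.

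**Figure D4:**
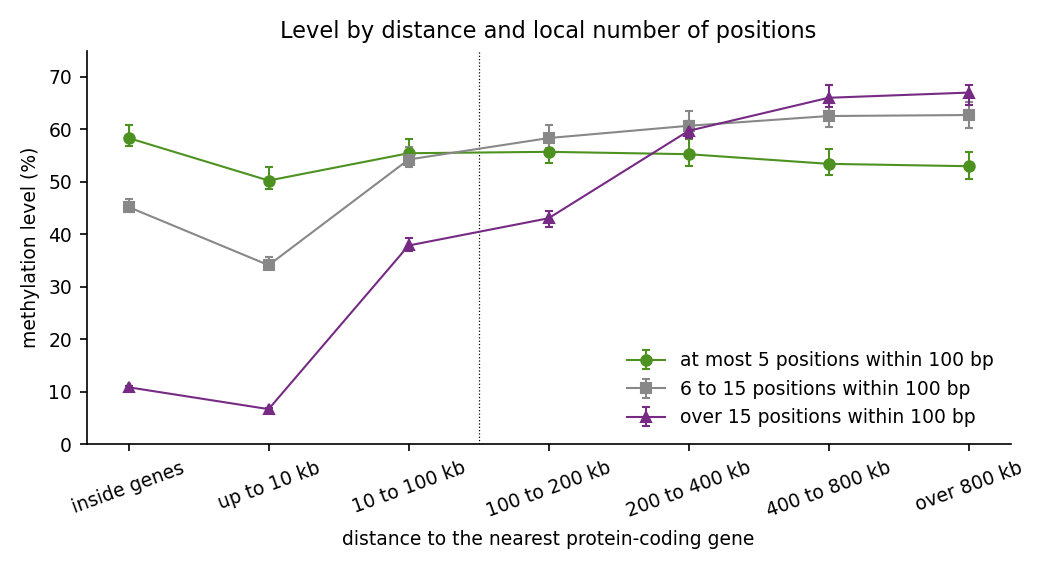
Methylation level (y axis, percent) by distance to the nearest protein-coding gene (x axis) in the 3 classes of local position number; points are medians of the 10 columns, bars their range, and the dotted line is the limit used for deserts. The dense class is at 10.8% inside genes and 67.02% over 800 kb from one, and crosses the sparse class between 100 and 400 kb.

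With positions weighted equally, deserts had similar levels on most chromosomes. Except for chromosome 17, the median column ran from 54.5% on chromosomes 12 and 19 to 59.6% on chromosome 10. Weighted by coverage, chromosomes 2 and 6 were also lower, at 51.0% and 47.1%. Desert positions were above other intergenic positions in 10 of 10 columns on all 19 autosomes. The middle class of local number was above the sparse class on 19 of 19, and the dense class was above the sparse class on 12 of 19. Chromosomes 10 and 14 had the highest dense classes, 69.6% and 70.2%, and chromosome 12 had a low one, 38.6%. Desert positions took 4.47% of the measured positions of chromosome 19, the smallest share, and 14.9% of those of chromosome 3.

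Chromosome 17 stood apart at 49.6% (47.7% to 51.9%), and was within the range of the others once 1 short region was left out. Around Rn18s-rs5, a pseudogene annotated as an 18S ribosomal RNA related sequence, 994 positions (chr17:39843001-39848710) had a level of 10.1% (9.01% to 11.3%). They are 0.504% of desert positions but held 11.9% of all desert reads, with a median summed coverage of 9347 reads against 372 at the other desert positions. Without them, chromosome 17 was at 55.9% (53.8% to 58.5%) and all deserts at 57.1% (55.4% to 59.9%). Ribosomal RNA genes are present in many tandem copies that reference assemblies largely leave out. Reads of such copies, if placed here, could not be told apart from reads of this locus. The lncRNA AY036118 overlaps the same region, so its positions are partly the same.

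A single desert was taken as the whole stretch between neighbouring protein-coding genes, of which only the part over 100 kb from both was measured. Of 1393 stretches longer than 200 kb, 1289 held a measured position, as did 9 chromosome ends. The 1097 deserts with at least 20 positions had a median level of 57.7%, and 1038 of them (94.6%) lay between 45% and 70%. There were 21 under 40% and 19 over 70%.

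Most of the deserts with many positions described here were near this median. Sall3-Galr1 (chr18:80987022-82392495), beside a zinc finger regulator of development and a galanin receptor gene, had 1079 positions at 58.1% (56.3% to 60.7%). Cntnap5b-Cdh20 (chr1:100490600-104768339), beside genes of neuronal adhesion proteins, was at 61.3% (58.7% to 64.3%) over 970 positions. Mn1-Cryba4 (chr5:111457031-112246491), between genes for a transcriptional coregulator and a lens crystallin, was lower, at 51.2% (49.8% to 54.1%) over 1062 positions. The exception was Esp15-Esp38 (chr17:39645668-39950519), between genes of exocrine gland peptides, at 11.1% (9.96% to 12.2%). Its 1016 positions include the 994 of the ribosomal RNA region.

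The 5 lowest deserts had densely spaced positions. Ppp1r14bl-Ogfrl1 (chr1:23102254-23366423) was the lowest, at 10.7% (9.46% to 11.8%) over 120 positions with a mean of 23.9 positions within 100 bp. After Esp15-Esp38 came 9530057J20Rik-Gm15319 on chromosome 8 (14.1%, 11.5% to 15.9%), Gm46305-Gm10476 on chromosome 12 (22.1%, 20.9% to 23.0%) and Zfat-Khdrbs3 on chromosome 15 (23.6%, 22.5% to 25.3%). The mean number of positions within 100 bp ran from 14.96 to 39.2 in these 5, against 6.47 over the 1097 deserts. However, a high local number was also found at the other end. Palmd-Plppr4 (chr3:116968953-117319144), with a mean of 24.3, stood at 85.7% (76.9% to 91.8%) over 30 positions.

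The highest desert, Vmn2r37-Gm10302 (chr7:9223654-9547710), lies beside a vomeronasal receptor gene and was at 86.0% (81.8% to 89.5%) over 20 positions. All 20 also belong to the pseudogene Gm3623. 5530400C23Rik-Gm5885 on chromosome 6 was at 81.0% (76.9% to 86.6%) over 39 positions, Crh-Cp on chromosome 3, beside the corticotropin-releasing hormone gene, at 77.3% (72.1% to 81.3%) and Gdap2-Tent5c, also on chromosome 3, at 75.9% (71.7% to 79.5%). These 5 deserts have 20 to 48 measured positions, many fewer than the median of 93 over the deserts with any position.

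Deserts beside developmental regulators were close to the others as a group. Of 135 listed regulators, 90 lie beside a measured desert. Their 106 deserts had a median of 56.8% (quartiles 53.8% and 59.1%), against 57.7% over all 1097. The lowest was Isl1-Parp8 (chr13:116309689-116850841), on a side of the LIM homeobox gene Isl1, at 35.0% (31.7% to 36.7%) over 76 positions. The desert on the other side of Isl1, Itga1-Isl1, was at 56.3% (53.8% to 59.8%). Other low members were Bbs9-Bmper at 39.1% (34.2% to 42.1%), beside a gene for a modulator of bone morphogenetic proteins (BMPs), and Tfap2c-Bmp7 at 41.7% (40.8% to 42.7%), between genes for a transcription factor and a BMP. Lhx1-Mrm1, beside a homeobox gene active in gastrulation, was at 41.9% (36.7% to 46.4%). The highest was Gm12695-Nfia at 71.2% (66.8% to 74.3%).

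Regulators of this stage lay beside deserts both above and below the median of 57.7%. The deserts on both sides of Sox2, a pluripotency and neural factor, were at 55.8% (Sox2-Atp11b) and 59.1% (Dnajc19-Sox2). The deserts on both sides of Bmp4, which encodes a signal of mesoderm formation, were at 59.2% (Ddhd1-Bmp4) and 61.8% (Bmp4-Cdkn3). The desert beside Eomes, a T-box gene of mesoderm and endoderm (LOC115486419-Eomes), was at 62.7%. Lower values stood beside Otx2, a head organiser gene, at 46.6% (Otx2-Exoc5, 41.6% to 51.9%), and beside Foxa2, an endoderm gene, at 48.8% (Pax1-Foxa2, 46.0% to 51.3%). The neighbours named here were picked after their values were seen.

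The 142 deserts beside genes of neuronal adhesion, receptors and channels had a median of 57.4%, and the 12 beside chemosensory receptor genes 61.1%. In the dense class, positions near neuronal genes stood at 67.4% and those near developmental regulators at 52.9%, while the sparse classes were at 53.4% and 55.7%. Dense positions were also higher in longer deserts: 34.4% in deserts of 200 to 500 kb, which include the ribosomal RNA region, 55.4% at 500 to 1000 kb, 64.1% at 1000 to 2000 kb and 65.9% over 2000 kb. The medians of whole deserts in these 4 length classes were all between 57.4% and 57.9%. No test was made between these groups.

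Most dense runs of positions were at an intermediate level, with few at either end. Runs of at least 10 desert positions, each at most 100 bp from the next, numbered 4730 and had a median level of 62.0%. Of them, 4361 lay from 20% to 80%, 131 (2.77%) were under 20% and 238 (5.03%) over 80%. The low share went up with the number of positions, from 1.48% of runs with 10 to 19 positions to 5.33% with 20 to 29 and 17.2% with 30 or more. The median of all runs of 30 or more, low ones included, was 67.3%. Without the ribosomal RNA region, 15.7% of 223 such runs were low. Within 200 kb of a protein-coding gene 4.97% of runs were low, and farther away 1.08%.

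About as many low runs lay at annotated non-coding genes as did not. Of the 131 low runs, 68 (51.9%) were within 1000 bp of such a gene, against 921 of the other 4599 runs (20.03%), and 50 low runs were over 10 kb from any gene. The lowest run, chr15:68362796-68362903, lies 21507 bp from any gene in the desert between Zfat and Khdrbs3. Its 22 positions had a level of 0.561% (0% to 1.26%) over 6634 reads summed over positions. The run chr1:23256278-23256398, in the desert between Ppp1r14bl and Ogfrl1, had 44 positions at 0.585% (0.284% to 0.983%). The remaining 3 of the 5 lowest lay within lncRNA genes: chr1:7397697-7398011 in Gm26901 at 0.590%, chr6:31216594-31216803 in Lncpint at 0.591% and chr12:20990269-20990847 in Gm30124 at 0.934%. Lncpint is a p53-responsive lncRNA. Over its whole length with 1000 bp on each side, its 294 desert positions were at 37.7% (36.4% to 39.0%).

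Among the highest runs, chr1:101984056-101984218, in the desert between Cntnap5b and Cdh20, was at 91.7% (87.5% to 96.5%) over 15 positions. The run chr3:21157690-21157811, between Agtr1b and Tbl1xr1, was at 91.3% (86.8% to 93.9%) over 12 positions. The run chr14:81088945-81089119, between Olfm4 and Pcdh17, was at 91.1% (86.2% to 95.5%) over 16 positions. The run chr1:146287810-146287964, between Rgs18 and Brinp3, was at 91.3% (87.9% to 93.9%) over 14 positions. The distance of these 4 from any gene ran from 20517 to 253959 bp. Outside the ribosomal RNA region, the run with the most positions was chr8:20122210-20122821, with 97 positions at 5.00% (2.61% to 7.53%). It lies in the desert between 9530057J20Rik and Gm15319.

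Non-coding genes within deserts had, as a group, a median close to the level of desert positions. Single genes were not compared with the positions around them. Of 2164 such genes with a desert position inside them or within 1000 bp, 1158 had at least 10 positions, with a median of 57.0%. Only 29 of these were under 20% and 6 over 80%. The lncRNA genes (950) had a median of 56.6% and the pseudogenes (182) 61.5%. The lowest were the lncRNA genes Gm31676 at 2.19% (0.445% to 4.57%, 11 positions) and 9530059O14Rik at 2.20% (1.29% to 3.34%, 52 positions). Next came the pseudogene Gm4425 at 2.70%, Dubr, a lncRNA with a reported role in muscle cell differentiation, at 2.91% (1.78% to 3.63%, 58 positions), and Gm29998 at 3.22%. The highest were Gm3623 at 86.0%, the immunoglobulin segment pseudogene Igkv15-97 at 85.0% (71.6% to 91.9%), the lncRNA genes Gm30524 at 83.4% and Gm2233 at 82.8%, and the pseudogene Macroh2a3 at 80.3% (77.9% to 84.4%, 70 positions). Counts at pseudogenes may include reads of near-identical copies.

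The desert level was lower around the starts of lncRNA genes. Over 1591 starts it was 56.4% at 20 to 10 kb before the start, 43.5% (42.0% to 45.5%) in the last 500 bp before it, 34.1% (32.3% to 35.9%) in the first 500 bp after it and 52.9% from 1000 to 2500 bp. At the 79 starts whose promoter window holds over 10 CpGs, the first 500 bp were at 13.1% (11.7% to 14.2%). The low stretch was broad at these starts: 58.4% at 20 to 10 kb before the start, 30.6% at 5000 to 2500 bp before, 31.4% at 2500 to 1000 bp before, 33.4% at 1000 to 2500 bp after and 54.9% at 2500 to 5000 bp after. At the 1512 others, the first 500 bp were at 45.2% (42.9% to 47.8%), still below the 56.3% found 20 to 10 kb before the start. The positions of neighbouring starts overlap, so these intervals are not independent.

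**Figure D5:**
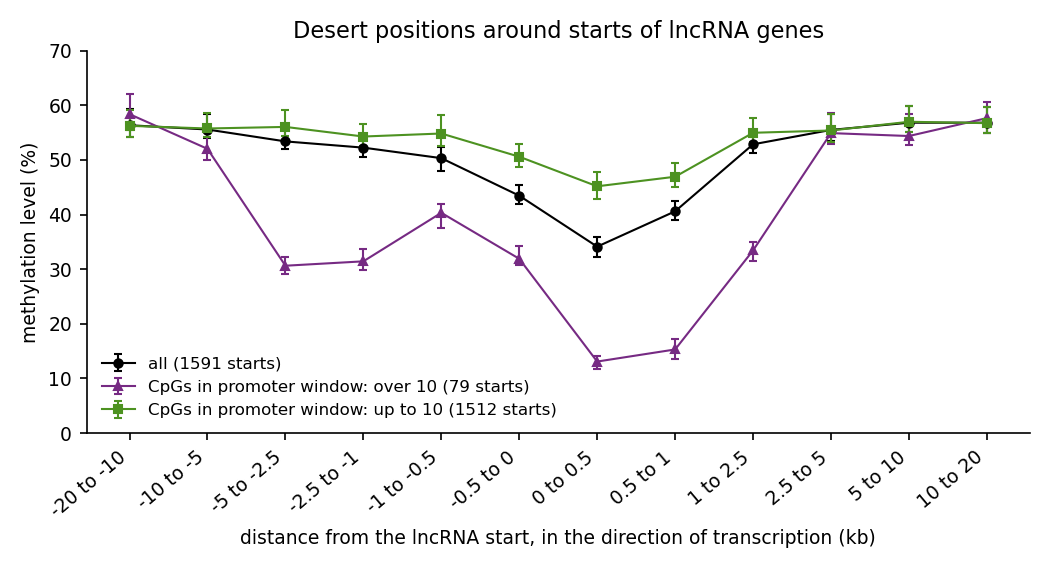
Methylation level of desert positions (y axis, percent) by distance from lncRNA starts in the direction of transcription (x axis, kb), for all starts and by number of CpGs in the promoter window; points are medians of the 10 columns and bars their range. The lowest interval is the first 500 bp, at 13.1% for starts with over 10 CpGs and 45.2% for the others.

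The promoter windows of desert lncRNA genes were CpG-poor and more methylated than other promoters. Of 110 such genes with at least 3 measured positions in the window, 21 (19.1%) were under 20%, and the median was 47.7%. In the same windows of lncRNA genes outside deserts (1460 genes) the median was 3.61%, and of protein-coding genes (6847) 1.19%. Over 15 CpGs were held by 11 of the 110 desert windows, against 51.8% and 77.6% of the other 2 kinds. By number of CpGs, the gap between desert and other lncRNA windows was wide in 1 class. With 6 to 10 CpGs, 48 desert windows had a median of 51.3%, other lncRNA windows 45.8% and protein-coding windows 15.7%. With 11 to 15 CpGs, 18 desert windows had 47.1%, other lncRNA windows 10.6% and protein-coding windows 1.91%. With 16 or more, the 11 desert windows had 5.07%, other lncRNA windows 1.09% and protein-coding windows 1.05%. With at most 5 CpGs the 3 kinds were close, at 53.0%, 49.2% and 46.3%. The 2 low windows whose sequences are given fall in the class with 16 or more CpGs, and the 2 high ones in classes with fewer. Each of the 1116 desert positions that could be checked against a promoter sequence was the C or the G of a CG.

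Among microRNA genes in deserts, 6 of 16 had at least 10 desert positions within 1000 bp, and 3 of these were under 20%. Mir137, a neuronal microRNA between Snx7 and Dpyd (chr3:118433857-118433929), was at 5.76% (1.94% to 12.96%) over 17 positions. Its mature forms are shown because it was the lowest, from RefSeq on GRCm38.p6, with the seed (bases 2 to 8) in capitals.
mmu-miR-137-5p: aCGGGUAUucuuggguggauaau
mmu-miR-137-3p: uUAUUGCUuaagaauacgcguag
The other low locus holds Mir124a-2, of a family abundant in neurons, and Gm51272, which share the same 14 positions at 15.3% (7.68% to 19.7%). Their host gene Mir124-2hg was at 16.1% (10.1% to 18.7%). Mir539, in the imprinted microRNA cluster between Rtl1 and Dio3, was at 72.3% (58.9% to 83.4%), Mir8117 at 70.2% (62.7% to 77.2%) and Mir5099 at 56.5% (45.3% to 66.3%). The column ranges of the low and the high microRNA loci do not overlap, which follows from sorting them by these same levels.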

How the data were processed

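Reads were processed by the authors with Trim Galore, Bismark and methylKit on mm10, per the submitters' processing notes. Tool versions were not given in the sources used here. Counts deposited by the authors are, per the file headers, coverage, methylated and unmethylated reads per position and column, used without normalization. Each of 2137824 positions had at least 10 reads in each column. Of the per-sample columns, 30 were tied to no sample. Levels were methylated reads divided by coverage, averaged with equal weight per position in each column, or summed over columns for shares, single deserts, runs and genes, with numpy 2.4.6 and pandas 2.3.3 and checked on simulated data. Positions on X and Y were left out. Distances came from RefSeq genes of GRCm38, without exons or repeats.

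The members and lists were chosen with earlier results of these data known. Named were the 5 deserts with the most positions, and the 5 highest and 5 lowest deserts (at least 20 positions), runs and non-coding genes (at least 10); 1 desert and 1 run of these are not reported here. Other genes named were chosen after their values were seen. Alternatives were coverage limits, distances, windows, weighting, summed strands and omission of columns; the omission of the ribosomal RNA region, also with weighting, was added after the data were seen. Intervals for counting error were not given, since positions on a read are not independent.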

Additional observations from a re-analysis of the deposited data

Results flagged for a closer look

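Of 88 values examined over the 10 columns, 5 had a column far from the others, with a gap to the next column, as a share of the whole range, above Dixon's critical value. Chance gives about 1 in 20. The ribosomal RNA run chr17:39843001-39844900 was at 11.9% in column 1, with the next column at 10.3% and the lowest at 8.55%. The promoter window of Gm29998 was at 4.26% in column 8, with the next at 1.91%. That of Gm30604, another low lncRNA window, was at 5.70% in column 6, with the next at 2.01%. The window of Gm34061 was lowest in column 7, at 78.1%, with the next at 85.1%. Mir125b-1, with 3 positions, was at 51.2% in column 8, with the next at 31.7% and the lowest at 13.3%.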

How the results depend on the processing

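No paired analysis was possible because the columns carry no replicate number tied to a sample; the further fits planned for the comparison of arsenic with control (the replicate block and the omission of each sample) were not run. Unless stated, values are percent or, for desert minus other intergenic, points; sparse, middle and dense are the 3 classes of local position number, and the cause of a change was not tested. Most results are medians over the columns, which leaving out a column can hardly move, so the following ranges say little about stability. With each column left out in turn they were 56.8 to 57.0 for the desert level, 13.8 to 14.2 for the difference, 1.21 to 1.57, 15.05 to 15.4 and 38.2 to 38.4 for it in the 3 classes, and 130 to 134 for the number of runs under 20%.

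Of the 192 values under the other alternatives, 1 changed sign and 61 moved beyond the spread over columns (counts, beyond 1.5 times). With at least 20 reads in each column, the difference was 12.5, and 0.562, 12.4 and 35.9 in the sparse, middle and dense classes; chromosome 17 was at 45.1, and 67 runs (3.43%) were under 20% and 102 over 80%. Fewer positions pass this limit. Without the 1% most covered positions, the dense class was at 55.8 and its difference 41.3. With deserts beginning at 50000 bp, the difference was 15.5, and 2.14, 15.8 and 37.5 by class; the dense class was at 50.1, and 6.49% of positions were under 20%. From 200000 bp it was 13.3, and 0.455 in the sparse and 46.5 in the dense class; the dense class was at 62.7, and 4.66% were under 20%. At over 100000 bp from any gene it was 11.8, and -0.811, 14.5 and 49.9 by class, so the sign turned in the sparse class; the middle and dense classes were at 63.0 and 67.7, and 4.87% were under 20%.

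Weighting by coverage moved the most values. The desert level was 49.0 and the difference 4.59, with 1.82, 7.23 and 2.22 by class; the middle and dense classes were at 53.6 and 18.7, under the 55.7 of the sparse class, chromosomes 2, 6 and 17 at 51.0, 47.1 and 13.8, 22.7% of weight was under 20% and 5.20% over 80%, and 2.90% of runs were under 20%. With these weights and without the ribosomal RNA region, the level was 54.3 and the difference 10.1, with 1.82, 7.46 and 31.1 by class; the middle and dense classes were at 53.8 and 47.1, chromosomes 2, 6 and 17 at 51.0, 47.1 and 56.0, and 12.3% was under 20% and 5.90% over 80%. Without that region alone, the dense class was at 56.3, its difference 41.7 and chromosome 17 at 55.9. With the strands of a CpG summed, the difference was 2.03 in the sparse and 17.5 in the middle class, and 3.96% of positions were under 20%. Counting neighbours within 50 bp put the dense class at 34.9; within 200 bp, the middle and dense classes were at 58.5 and 58.7.

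Positions below 10 reads in any column are not in the table, so deserts are described by their shared, CpG-rich part. Coverage of 26 to 46 reads leaves wide counting error at single positions. The columns cannot be assigned to arsenic or control, and repeats were not analysed.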
